A study of Mus with 2 samples.

Results

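The genes described here are 10 that encode the contractile apparatus of smooth muscle and myofibroblasts, namely Acta2, Actg2, Tagln, Tagln2, Myl9, Cnn1, Cnn2, Tpm1, Tpm2 and Myh11. They were selected on knowledge of that apparatus and on the lower Acta2 signal seen earlier on these same arrays, so that the difference between the arrays is given as a description and not as a finding. Of 20144 genes that could be matched by name on the array they make up 10, read by 17 probes at 26 spots. Macrophages were grown from the bone marrow of male C57BL6/J mice, 10 weeks old per the study's methods, by culture with 10 ng/mL of M-CSF for 7 d (bone marrow derived macrophages, BMDMs). They were then kept under M2 conditions, meaning 10 ng/mL of IL-4, for 24 h, with 10 µM of GW4064, a synthetic agonist of the farnesoid X receptor (FXR), or with its solvent DMSO. Each condition was measured on 1 Agilent array read in 1 colour. The GW4064 array was assigned by its title, source and treatment labels, while its free-text description repeats the wording of the DMSO sample, and every signed difference below rests on that assignment. No sorting of the cultured cells before RNA extraction is named, and the number of mice behind each array is not given in the sources used here.

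In smooth muscle, actin filaments covered by tropomyosin slide along myosin, and phosphorylation of the regulatory light chain of myosin switches contraction on. Calponins and transgelins bind the actin filament, and smooth muscle actin is the classical marker of the myofibroblast, the contractile fibroblast of healing wounds. These genes are known as targets of serum response factor (SRF) with its partners myocardin and the MRTF proteins, and as genes raised by TGF-beta. Macrophages are not known as a main source of the smooth muscle forms, whereas Tagln2, Cnn2 and several tropomyosins are also made in many nonmuscle cells.

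The values are processed signals, the brightness of a spot once the scanner software had removed background and slow trends across the slide. A probe is called measured where the software found it well above background on at least 1 array. For each array the log2 signal was set to 0 at its 75th percentile, 1209 with DMSO and 1265 with GW4064 before the log. A log2 difference below is GW4064 minus DMSO, and a gene is the mean over its measured probes. Since each condition has a single array, no replicate error and no test can be given, and this limits the precision throughout. As a technical scale, the log2 difference varied between copies with a median SD of 0.077 over 234 probes that are present 10 times and bright enough at each copy.

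Of the 10 genes, 9 were measured, and all 9 had a log2 difference below 0 on the GW4064 array, against 48.2% of the 13533 genes measured. The brightest probe alone gave Cnn2 and Tpm1 values above 0. Lower by 2-fold or more were 4, namely Actg2, Cnn1, Acta2 and Tagln, against 2.71% of all genes, and 0 were 2-fold or more higher, against 2.04%. Acta2 is 1 of the 4, and its lower signal was known when the genes were selected, so the count partly restates that choice. Centring the arrays on spike-in control RNA, which shifts the median of all genes by -0.19, gave 28.8% higher among all genes past 2-fold, against 42.9% here. The median difference of the 9 genes was -0.95, beside 0.0069 over all genes. They fell into separate ranges, with Actg2, Cnn1, Acta2, Tagln and Myl9 between -1.76 and -0.95 and Tpm2, Tagln2, Tpm1 and Cnn2 between -0.30 and -0.017. Myh11 stood out from background on neither array. No member spot was saturated or marked as uneven. Of the 26, 6 lay in areas where 2 or more other spots within 300 µm differed 8-fold or more between the arrays. The share over all spots other than controls was 16.5%. Such areas are called damaged areas below, a name that rests on these differences alone.

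**Figure D1:**
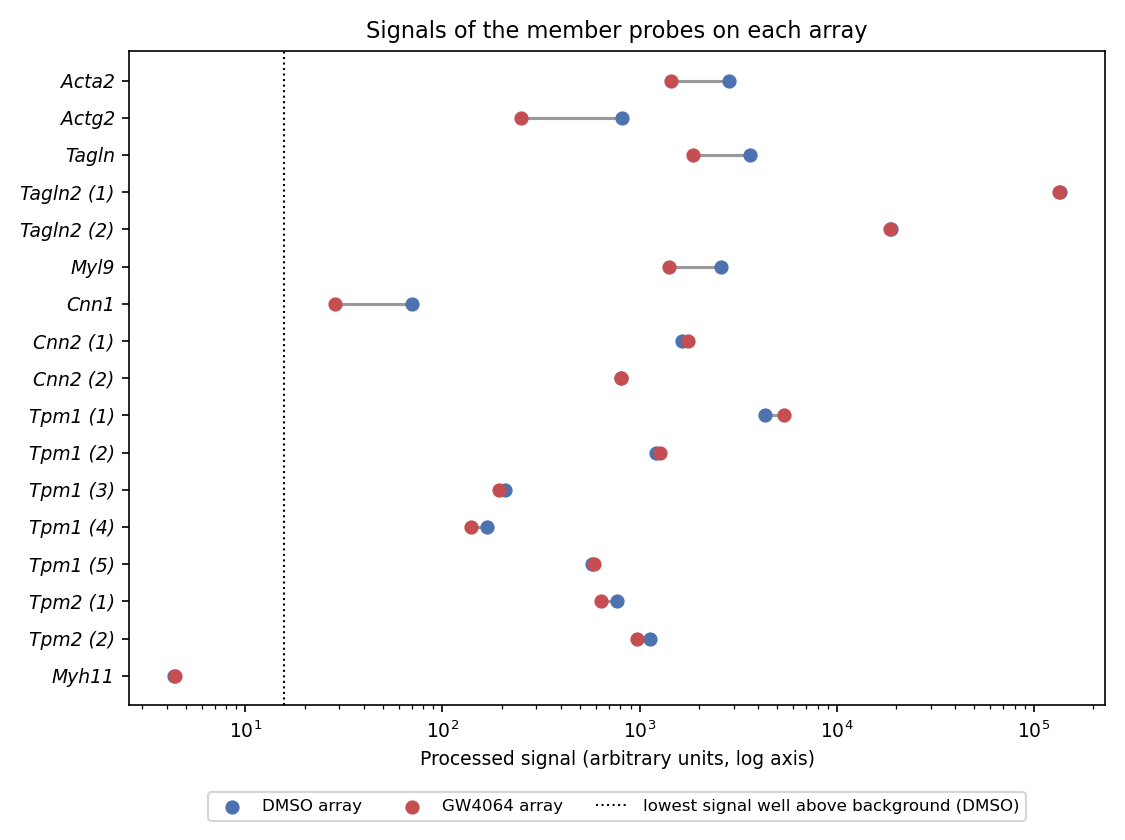
Processed signal of each of the 17 probes with DMSO (blue) and with GW4064 (red), on a log axis. Numbers in brackets tell apart the probes of a gene, and the dotted line is the lowest signal well above background on the DMSO array, 15.7. The probes for Acta2, Actg2, Tagln, Myl9 and Cnn1 were lower with GW4064, those for Tagln2 and Cnn2 lay nearly on top of each other, and Myh11 lay left of the line. Levels of different probes cannot be compared.

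Among the actins, Acta2 (NM_007392), smooth muscle alpha actin, was printed 10 times on each array and so has the best technical measure of the group. On the DMSO array the copies read from 2655 to 3111 with a median of 2862, and on the GW4064 array from 1346 to 1506 with a median of 1451. The copies of the arrays did not overlap, and each of the 10 positions was lower on the GW4064 array. The log2 difference was -1.05 with an SD of 0.091 over the 10 copies, which is 2.07-fold lower, and single positions ranged from -1.14 to -0.89. The copies come from 1 RNA sample per condition and measure the array, not the culture. Of 4451 probes within 2-fold of its mean signal and well above background on both arrays, 12 had a difference as low or lower, its own included. The lower Acta2 signal was part of the selection, so this rank is a description only. With a normexp background correction the difference was -0.99, just short of 2-fold.

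**Figure D2:**
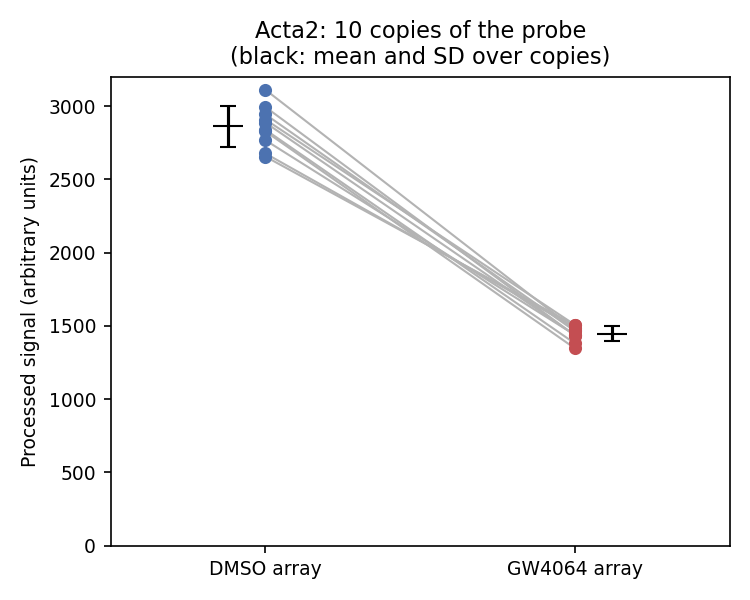
Processed signal of the 10 copies of the Acta2 probe on each array, with lines joining the same position on both. Black marks give the mean and SD over the copies, 2860 ± 140 with DMSO and 1447 ± 52.2 with GW4064, and the copies of the arrays do not overlap.

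Actg2 (NM_009610), the gamma actin of enteric smooth muscle, had the lowest difference of the group. Its single spot read 811 with DMSO and 250 with GW4064. This is a log2 difference of -1.76, or 3.40-fold lower, and placed it 115th from the lowest among 13533 genes. Of 4198 probes at a similar signal, 4 had a difference as low or lower, its own included, and 45 probes printed 10 times at that level had SDs of at most 0.23 over their copies. Its difference was below that of Acta2 by 0.72 on the log2 scale. The spot lay outside damaged areas, with 1 other spot of 8-fold difference within 300 µm.

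The cytoplasmic actins, which every cell uses for its cytoskeleton, had smaller differences. Actb had a signal of 362553 with DMSO and 367239 with GW4064, a log2 difference of -0.047, which became 0.045 after quantile normalization. Actg1 gave 0.13 as a mean over 5 probes and -0.064 after spike-in centring. Its probes disagreed, from -0.052 on the brightest, in a damaged area, to 0.35. The difference of Acta2 was thus 1.17 below that mean of Actg1, a contrast within the arrays that no centring changes. Of the striated actins, Acta1 of skeletal muscle read 81.0 and 43.6, a difference of -0.96 (-0.41 after normexp), and Actc1 of the heart was too dim to measure. Actins are alike in sequence, and whether a probe also reads the RNA of another actin was not tested.

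The calponin family split by member. Tagln (NM_011526), transgelin or SM22 alpha, an early marker of smooth muscle, read 3652 with DMSO and 1878 with GW4064. Its log2 difference was -1.02, which is 2.03-fold lower and 0.023 above that of Acta2. The scanner software put an error of 365 on the signal with DMSO and of 188 on that with GW4064, about 10% of each. Such an error belongs to the spot and does not measure the spread between cultures. Of 4289 probes at a similar signal, 10 were as low or lower, its own included. Under every alternative setting the difference stayed between -1.22 and -1.02.

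Tagln2 (NM_178598), the transgelin of blood and other nonmuscle cells, differed far less. Its first probe read 136679 and 134719, a log2 difference of -0.087, and its second read 18823 and 18624, a difference of -0.081. Both are about as large as the median SD over copies of probes at their level, 0.077 over only 4 such probes and 0.070 over 33. The difference of Tagln was 0.94 below that of Tagln2.

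Cnn1 (NM_009922), the calponin of differentiated smooth muscle, was the dimmest measured member. Its spot read 69.9 with DMSO and 28.6 with GW4064, a log2 difference of -1.36 or 2.56-fold lower. At this level single spots scatter more, with a median SD of 0.18 over the copies of 19 probes, and 85 of 4071 probes at a similar signal were as low or lower, its own included. The spot lay in a damaged area, with 3 other spots of 8-fold difference within 300 µm, and normexp gave -0.60. Without the damaged areas Cnn1 had no value, and their part in the difference was not tested.

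Cnn2 (NM_007725), the calponin that macrophages and other nonmuscle cells are known to make, read 1641 and 1756 on its first probe and 806 and 806 on its second. The log2 differences were 0.032 and -0.065, about as large as the median SDs over copies at their level, 0.070 and 0.065, or smaller. Cnn1 stood 1.34 below Cnn2. Cnn3, a calponin of nonmuscle cells and no member, read lower on both of its probes, with a mean of -0.77 from signals of 381 and 234.

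**Figure D3:**
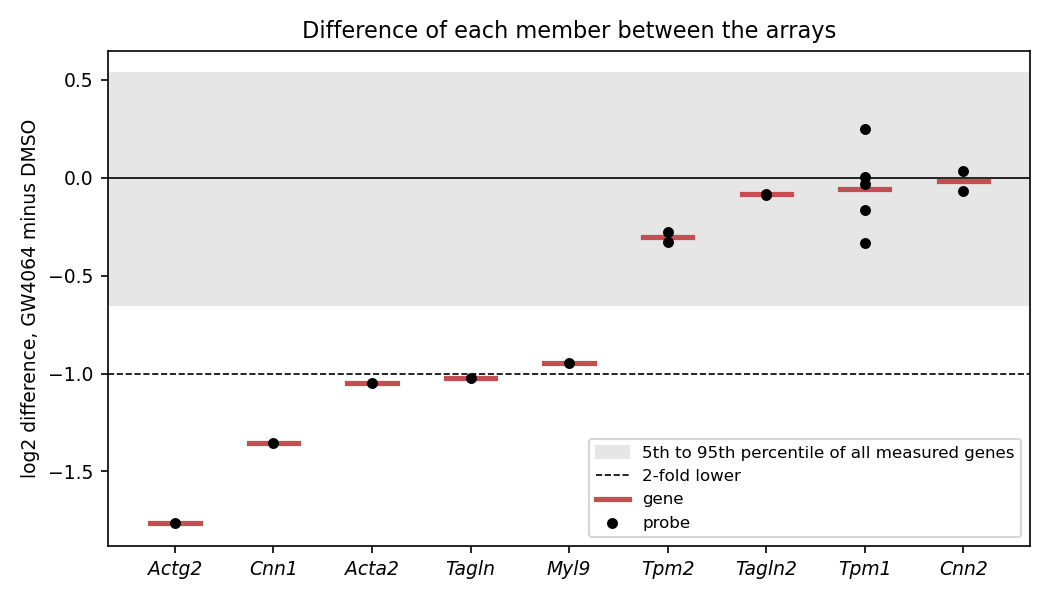
Log2 difference between the GW4064 array and the DMSO array for the 9 measured genes, ordered from lowest to highest. Red bars give the gene, black points its probes, the grey band the 5th to 95th percentile of all 13533 genes (-0.65 to 0.53) and the dashed line 2-fold lower. Actg2, Cnn1, Acta2, Tagln and Myl9 lie below the band, and the other 4 genes lie within it.

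Of the tropomyosins, which lie along the actin filament and gate its access to myosin, Tpm2 was lower on both probes and Tpm1 had no single direction. Tpm2 (NM_009416), the beta tropomyosin of muscle, read 767 and 640 on its first probe, a log2 difference of -0.33. The second read 1126 and 973, a difference of -0.28. Their mean of -0.30 equals a level of 81.2% of that with DMSO. The SD over copies of probes at those levels was 0.24 at most. The spot of the second probe lay in a damaged area, that of the first did not.

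Tpm1, the alpha tropomyosin, makes many splice forms in muscle and nonmuscle cells. Its probe on NM_001164249 read 4346 with DMSO and 5399 with GW4064, a log2 difference of 0.25, and lay in a damaged area with 8 spots of 8-fold difference within 300 µm. Those on NM_001164251 and NM_001164255 had 0.0034 and -0.032. Both probes on NM_001164248 were lower, with -0.16 from signals of 207 and 194 and with -0.33 from signals of 169 and 140. The 5 probes thus ran from -0.33 to 0.25 around a mean of -0.056. At the levels of those end points, probes printed 10 times had a median SD of 0.12 and 0.073 over their copies, and 0.27 and 0.21 at most. Whether each probe reads only the splice form it is named for was not tested. The tropomyosins Tpm3 and Tpm4, abundant in nonmuscle cells, differed by 0.014 and 0.092, and spike-in centring put both below 0.

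On the myosin side, Myl9 (NM_172118), the regulatory light chain whose phosphorylation starts contraction, read 2584 with DMSO and 1404 with GW4064. The log2 difference of -0.95 is 1.93-fold lower, just short of 2-fold, and passed it only with spike-in centring (-1.14). Of 4478 probes at a similar signal, 17 were as low or lower, its own included. Light chains that nonmuscle cells also make had smaller differences, with -0.0026 for Myl6, -0.046 for Myl12a and -0.048 for Myl12b. Myh11 (NM_001161775), the heavy chain that defines mature smooth muscle, read 4.33 and 4.37, below the lowest signals well above background, 15.7 and 15.1. The nonmuscle heavy chain Myh9 read 47407 and 54580, a difference of 0.14 that turned to -0.053 with spike-in centring. Myh10 had 0.85 from dim signals of 24.1 and 45.6 in a damaged area, and 0.094 after normexp.

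Other genes of smooth muscle had a median near 0, and many were too dim. Of a list of 28 such genes, 18 were measured, with 11 below and 7 above 0, 3 lower by 2-fold or more and 0 higher, and a median of -0.046. With spike-in centring 17 of the 18 were below 0, with a median of -0.24. Myocd, which encodes myocardin, Lmod1, Des, Mylk, Kcnmb1, Pln, Pdlim3, Itga8 and Ppp1r14a were too dim to measure on both arrays, like Myh11. The 3 lower genes were all dim, and 1 of them, Synm, passed 2-fold with normexp. Nexn, an actin-binding protein, read 41.5 and 16.9, a difference of -1.36 (-0.43 after normexp). Synm and Synpo2 were at least 7.05-fold and 3.71-fold lower on 1 probe each, in damaged areas, while their other probes were too dim on both arrays.

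Of the known regulators of these genes, Srf and Mrtfa differed little in RNA level between the arrays, and Myocd could not be measured. Srf had 0.058, Mrtfa -0.071 and Mrtfb 0.054, and Srf and Mrtfb lay below 0 after spike-in centring. The 3 probes for Mrtfb disagreed, running from -0.26 on the brightest to 0.63, so its mean near 0 has no single direction behind it. Smtn, smoothelin, had 0.00084 and Csrp1 0.058, both below 0 after spike-in centring. Cald1, caldesmon, had -0.66 and -0.48 on its probes. Of the filament linkers, Actn1 had -0.28, Vcl 0.019 and Flna 0.043, all below 0 after spike-in centring. Among 13 measured relatives of the members, forms made in nonmuscle cells and the striated Acta1, the median was -0.046. Of these, Tagln3 alone was lower by 2-fold or more. It was well above background only with DMSO and at least 3.46-fold lower with GW4064.

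TGF-beta, the cytokine best known for raising these genes, was read together with its receptors and targets. Of 11 such genes all were measured, 9 below and 2 above 0, with 2 lower and 1 higher by 2-fold or more and a median of -0.073. Tgfb3, printed 10 times, read 483 to 565 over its copies with DMSO and 198 to 244 with GW4064, a difference of -1.31 with an SD of 0.096. Its copies did not overlap between the arrays, and 4 of the 10 lay in damaged areas. Tgfb2 had -1.48 and -1.29 on its probes. After normexp Tgfb2 (-0.80) was short of 2-fold. Tgfb1 has 10 copies as well, with signals of 8577 and 8532 and a difference of -0.073 (SD over copies 0.058). Ccn2, a known target of the pathway, read 5425 and 2906, a difference of -0.97. This lies close to the differences of Acta2, Tagln and Myl9. Genes of other lists had differences of that size too, such as Acta1 (-0.96) and Col1a2 (-0.99), and a link was not tested. The receptor Tgfbr1 had -0.50 and Tgfbr2 -0.050. Smad3 went the other way on its probe above background, with 394 and 924 and a difference of 1.16, or 0.97 after spike-in centring.

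Markers of stromal cells were lower on the GW4064 array too. Of 20 such markers 19 were measured, 16 below and 3 above 0, with 7 lower and 0 higher by 2-fold or more and a median of -0.88. With normexp 3 passed 2-fold. The 7 were Col6a1 (-1.25), Mmp2 (-1.21), Col5a1 (-1.21), Fstl1 (-1.16), Bgn (-1.13), Postn (-1.11) and Fbn1 (-1.07). Other genes of the list, for collagens, further matrix proteins and a receptor, were lower by less than 2-fold. They were Col1a2 at -0.99, Dcn at -0.88, Sparc at -0.80, Pdgfrb at -0.76, Col1a1 at -0.72 and Col3a1 at -0.58, among others. Thy1 was at least 1.29-fold lower, Lum was too dim to measure, and Fn1 (0.041), Pdgfra (0.065) and Kitl (0.30) were above 0, Fn1 and Pdgfra not under all settings. Summed over the measured probes as multiples of each array's 75th percentile, the list came to 58.2 with DMSO and 41.3 with GW4064, or 71.0%. Such a sum follows its brightest probes, and without Fn1 the stromal sum was 53.1% of that with DMSO. The contractile genes summed to 145.8 and 134.4, or 92.2%, and to 77.0% without Tagln2. The part of such cells in the differences of the contractile genes was not tested. In RNA from a whole culture, fewer cells of a type and less RNA per cell cannot be told apart.

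Markers of the macrophages themselves had smaller differences. Of 12 markers 11 were measured, and Cd68 had no probe matched by name. Their differences ran from -0.41 for Ptprc to 0.13 for Cd14, with a median of -0.0075, 6 below and 5 above 0 and none past 2-fold. Itgam had 0.089, Csf1r -0.24 and Adgre1 -0.25. Their sum was 94.1% of that with DMSO, and 91.0% without Tyrobp, the brightest. After spike-in centring all 11 were below 0, with a median of -0.20, while the contractile genes had -1.14 and the stromal markers -1.07.

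**Figure D4:**
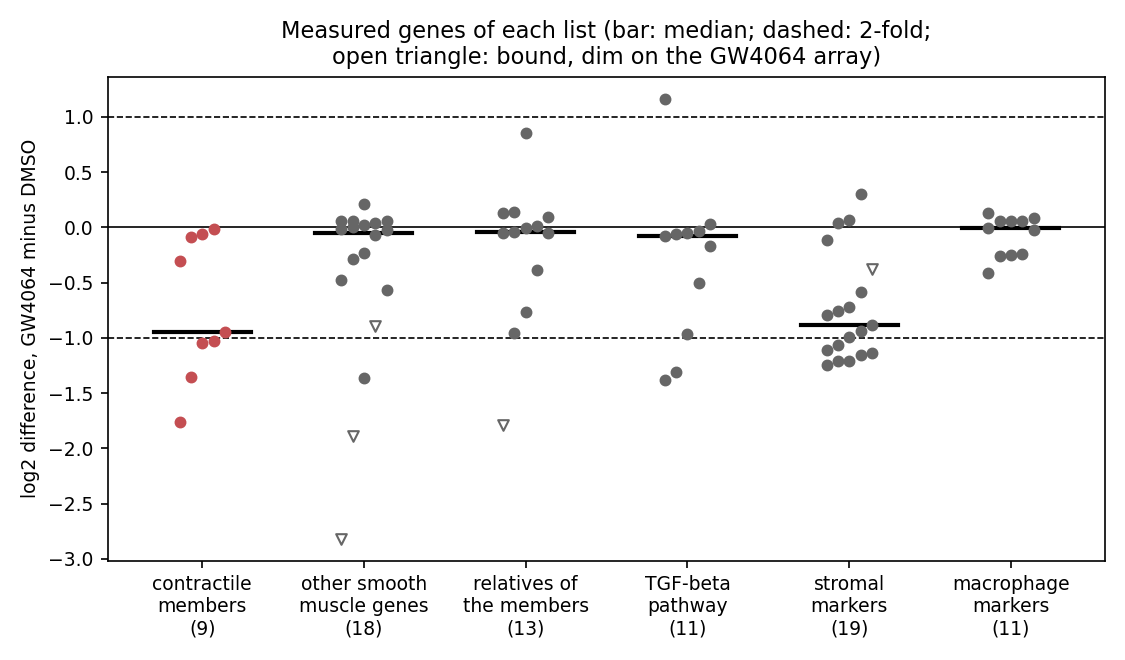
Log2 difference between the GW4064 array and the DMSO array for the measured genes of 6 lists, with the number of genes in brackets. Each point is a gene, open triangles are bounds for genes dim on the GW4064 array, black bars are medians and dashed lines mark 2-fold. The contractile genes (median -0.95) and the stromal markers (-0.88) lie low. Medians lie around 0 for the other smooth muscle genes (-0.046), relatives of the members (-0.046), the TGF-beta pathway (-0.073) and macrophage markers (-0.0075). Single genes spread from -2.82 to 0.21 among the other smooth muscle genes and from -1.79 to 0.85 among the relatives. The TGF-beta pathway ran from -1.38 to 1.16 and the macrophage markers from -0.41 to 0.13.

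**Figure D5:**
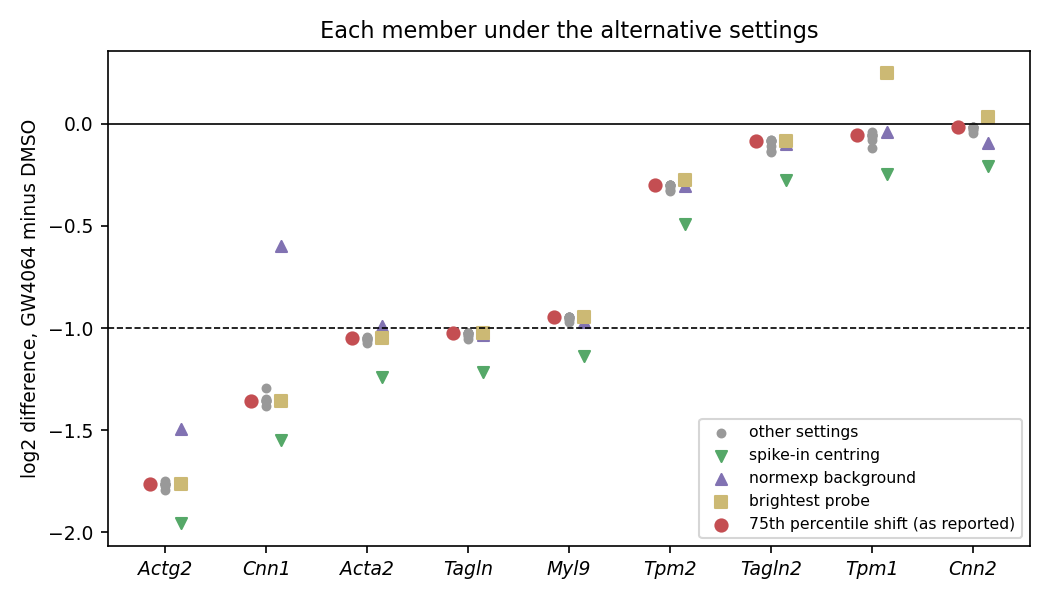
Log2 difference of each measured member under the setting reported (red) and under 11 alternatives, or 10 for Cnn1, which has no value without damaged areas. Spike-in centring lowered every member, normexp moved the dim Cnn1 most, to -0.60, and the brightest probe alone put Tpm1 at 0.25 and Cnn2 at 0.032.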

How the data were processed

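The authors deposited the Feature Extraction 10.7.1.1 output of 2 arrays, with the intensity of each spot after background subtraction and detrending and without scaling between arrays, and a log2 table of both. For 39200 probes the table's difference, GW4064 minus DMSO, matched the one computed here within 0.001 once a constant of -0.0022 was allowed for. The deposited log2 column medians are 0.035 and -0.051, and the baseline that each probe was centred on stays unknown. From the intensities, log2 signals minus the 75th percentile of each array were averaged over the spots of a probe, without spots marked as uneven or as outliers among copies. A probe with copies counted as well above background where 50% or more of them were. Where a probe was dim on a single array, its value there was raised to the lowest one well above background if it lay under it, which makes the fold a bound (at least N-fold), and probes dim on both were left out. Of 39429 probes, 26581 took a name from their RefSeq transcript (GRCm38.p6). The array design rests on another build, so no coordinates are given, and sequences were not used here. No test was possible with single arrays, and the threshold was 2-fold. The members, the 9 gene lists and the alternatives were chosen with earlier results of these data known. A gene of the TGF-beta list is not reported here and was left out of its counts. Named are all members, list genes past 2-fold either way, and defining or bright genes of each list. Chosen after their values were seen were the further list genes Acta1, Actc1, Myl12a, Myl12b, Myh10, Csrp1, Actn1, Vcl, Flna, Kcnmb1, Pln, Pdlim3, Itga8, Ppp1r14a, Tgfb1, Tgfbr1, Tgfbr2, Ccn2, Lum, Fn1, Kitl, Ptprc, Tyrobp and Cd14. Alternatives were quantile normalization, the median of probes above background, spike-in centring, loess (span 0.3), limma's normexp (offset 50) on median spot intensities, the deposited table, marked spots kept, other filters on dim probes, the brightest probe, no damaged areas and 1.5-fold. The calculation was tested on simulated data with planted differences larger than the threshold. This checks the code only, and the bounds for probes dim on a single array were not part of it. The work used R 4.3.3 with limma 3.58.1 and Python 3.11.15 with pandas 2.3.3, numpy 2.4.6, statsmodels 0.14.6 (loess) and matplotlib 3.10.9 (figures).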

Additional observations from a re-analysis of the deposited data

How the results depend on the processing

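No paired analysis was possible because there is 1 array a condition. The number of contractile genes lower by 2-fold or more, 4 as reported, was 5 with spike-in centring and at a threshold of 1.5-fold, 3 without damaged areas, where Cnn1 had no value, and 2 with normexp, where Acta2 (-0.99) and Cnn1 (-0.60) fell short of it. It was 4 under the other 8 alternatives, and 0 were 2-fold or more higher under any of the 12. The median difference of the measured members, -0.95 as reported, was -1.14 with spike-in centring, -0.60 with normexp, -0.62 with no filter on dim probes, where Myh11 counted too, and -0.64 without damaged areas. Over all 13533 genes, 367 lower and 276 higher became 522 and 211 with spike-in centring, so calls of lower rose there beyond the members too. At 1.5-fold no count over all genes was made, so the 5 members have no share beside them. With normexp the counts were 64 and 72. With only probes above background on both arrays 164 were lower, 39.5% of the calls there being higher. The counts were 767 and 698 with no filter on dim probes and 202 and 168 without damaged areas. They were 495 and 495 with the deposited table, which has no bounds for dim probes. Cnn1, Myh11, Nexn, Synm, Synpo2 and Tagln3 had dim signals with GW4064, and Cnn1, Synm and Synpo2 also lay in damaged areas. Which of these weighs more was not tested. By construction, spike-in centring lowers the difference of each member by the same 0.19. The normexp setting adds an offset of 50 to each signal, which narrows the differences of dim probes. What lay behind the remaining shifts was not tested.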

Other observations

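Markers of pericytes, endothelium and skeletal muscle had differences of several sizes. Of 6 pericyte markers 3 were measured. Cspg4 read 133 and 67.5, a log2 difference of -1.05, in a damaged area, and Notch3 read 42.9 and 22.4, 49.9% of the level with DMSO (log2 difference -0.21 after normexp). Mcam read 16668 and 18000 on its probe above background, a difference of 0.045, and Rgs5, Abcc9 and Kcnj8 were not well above background on either array. Of 6 endothelial markers 5 were measured, all below 0 and none past 2-fold, with a median of -0.22 that ran from -0.55 for Emcn to -0.033 for Kdr. The brightest, Vwf, read 16904 and 16204, a difference of -0.13. Quantile normalization and the brightest probe each left 4 of the 5 below 0. Of 6 markers of skeletal muscle, 5 (Myog, Myod1, Ckm, Mylpf and Actn2) were not well above background on either array, and Tnnt3 was at least 2.27-fold lower on 1 probe in a damaged area. Emcn, Mcam, Kdr, Vwf and the markers listed as dim were named after their values were seen.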
